A study of Mus musculus with 12 samples.

Results

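The genes described here are 8 of the 18911 genes in the count table: the metallothioneins Mt1, Mt2 and Mt3, the zinc-sensing transcription factor gene Mtf1, and the zinc transporter genes Slc30a1, Slc30a3, Slc39a10 and Slc39a14. They were measured by RNA-Seq of poly(A)-selected RNA from mouse neural progenitor cells (mNPCs), which were cultured from the hippocampus of newborn (P0) pups on a C57BL/6J background. Mt3 was picked for its lower level in Kmt2a+/LSL, so its values in every comparison that holds Kmt2a+/LSL or Kmt2a+/+ libraries are given as a description with no test, and the other members were taken for their function, with earlier results of these data known. The LSL line used in the study derives from 1 founder. The 12 libraries cover 4 genotypes with 3 libraries each. Kmt2a+/+ cells carry neither modification, and Kmt2a+/LSL cells are heterozygous for a loxP-stop-loxP (LSL) cassette in the first intron of Kmt2a, which encodes a histone H3 lysine methyltransferase. Nes-Cre+/- Kmt2a+/LSL cells carry that allele together with 1 copy of a Cre transgene under nestin control, which removes the cassette in neural cells where the nestin promoter is active, and Nes-Cre+/- Kmt2a+/+ cells carry the transgene without the cassette. The study calls the libraries of a genotype biological replicates, and the labels do not say whether each came from a separate animal, so p-values measure the spread between these libraries.

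Metallothioneins are small cysteine-rich proteins that bind zinc and copper and buffer their free ions. Mt1 and Mt2 are made in most tissues and are induced by zinc, cadmium, glucocorticoids and oxidative stress, and in brain they are mainly astrocytic, whereas Mt3 is enriched in the nervous system and responds weakly to metals. When cytosolic zinc rises, the zinc finger protein MTF-1 binds metal response elements and induces Mt1, Mt2 and the zinc exporter gene Slc30a1, and it lowers transcription of the importer gene Slc39a10. Proteins of the SLC30 family move zinc out of the cytosol, and those of the SLC39 family move it in.

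Library totals lay between 18280008 and 28596919 estimated counts. Kmt2a, whose level checks the labels, averaged 290 ± 9.93 CPM in Kmt2a+/+ and 166 ± 0.392 CPM in Kmt2a+/LSL, and with nestin-Cre 297 ± 13.7 CPM without the cassette and 272 ± 12.7 CPM with it (SD, n = 3). CPM are counts scaled to the library total after TMM normalization. The labelled progenitor identity was checked with markers: none of the 8 neural progenitor markers was at 0 in any library and their summed level was at least 5915 CPM, against at most 1.72 CPM for microglia markers (5 of 7 in the table) and at most 5.70 CPM for fibroblast, mural and endothelial markers (8 of 9 in the table). Markers of other neural cells were present as well. Astrocyte markers summed to between 4117 and 8152 CPM. Oligodendrocyte lineage markers summed to 1199 CPM in Kmt2a+/+ replicate 1 and to between 3446 and 5560 CPM in the other libraries, most of it from the transcription factor gene Olig1 (genotype means of 2642 to 3260 CPM). Neuron markers summed to between 1016 and 1917 CPM, nearly all of it from Map2 (genotype means of 1280 to 1470 CPM), and each other neuron marker averaged at most 22.5 CPM in any genotype, with Slc17a7 at 0 in all 6 libraries without nestin-Cre. Olig1, Map2 and Slc17a7 are named after their values were seen. Kmt2a+/+ replicate 1 stood apart from the rest, with a median correlation of 0.832 with the other libraries of its genotype against 0.896 to 0.981 for the other 11. In that library genes with more than 55% GC lay at a median of 1.47 log2 units below their mean over the libraries (median log2 deviation -1.47). Nes-Cre+/- Kmt2a+/LSL replicate 1 was shifted the same way by less, at -0.24. In Kmt2a+/+ replicate 1 the neural progenitor markers summed to 14330 CPM against at most 8611 in the other 11, most of it from Fabp7 at 8960 CPM. The list was not high as a whole there, since Sox2, at 226 CPM, and Hes5, at 2.14 CPM, were each at their lowest among the Kmt2a+/+ libraries. Fabp7, Sox2 and Hes5 are also named after their values were seen. Mt1, Mt2 and Mt3 have 52.9%, 55.6% and 62.3% GC in their longest transcripts, so values are given with and without these libraries where they matter.

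Mt1, Mt2 and Mt3 lie within 27721 bp on mouse chromosome 8 (GRCm38), in the order Mt3 (94152607-94154146), Mt2 (94172664-94173568) and Mt1 (94179082-94180327), all on the plus strand. Mtf1 lies on chromosome 4 (124802104-124849800), Slc30a1 and Slc39a10 lie on chromosome 1 (191906767-191913247 and 46807544-46892852), Slc30a3 on chromosome 5 (31086106-31108237) and Slc39a14 on chromosome 14 (70303469-70351425). Metallothionein promoters are the textbook example of metal response elements, so the 250 bases before the RefSeq start (GRCm38.p6) of Mt1, Mt2, Mt3 and Slc30a1 are shown 5′ to 3′, with matches to the element's core, TGCACNC or TGCGCNC on either strand, in capitals.
Mt1 promoter, chr8:94178839-94179088, plus strand: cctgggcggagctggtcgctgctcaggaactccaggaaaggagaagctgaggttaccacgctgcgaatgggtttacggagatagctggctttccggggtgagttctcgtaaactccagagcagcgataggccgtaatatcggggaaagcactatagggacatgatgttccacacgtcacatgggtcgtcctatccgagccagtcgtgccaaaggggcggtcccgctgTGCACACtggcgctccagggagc
Mt2 promoter, chr8:94172368-94172617, plus strand: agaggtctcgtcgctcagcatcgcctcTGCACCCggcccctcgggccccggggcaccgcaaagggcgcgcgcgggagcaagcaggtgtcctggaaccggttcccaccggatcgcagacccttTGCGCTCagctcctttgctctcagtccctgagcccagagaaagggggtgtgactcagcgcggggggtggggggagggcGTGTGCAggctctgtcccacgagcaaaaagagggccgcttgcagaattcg
Mt3 promoter, chr8:94152357-94152606, plus strand: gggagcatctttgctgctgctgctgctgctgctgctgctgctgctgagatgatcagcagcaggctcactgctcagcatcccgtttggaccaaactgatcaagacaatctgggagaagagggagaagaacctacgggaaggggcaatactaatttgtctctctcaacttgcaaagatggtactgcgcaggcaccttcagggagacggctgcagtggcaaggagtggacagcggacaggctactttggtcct
Slc30a1 promoter, chr1:191906531-191906780, plus strand: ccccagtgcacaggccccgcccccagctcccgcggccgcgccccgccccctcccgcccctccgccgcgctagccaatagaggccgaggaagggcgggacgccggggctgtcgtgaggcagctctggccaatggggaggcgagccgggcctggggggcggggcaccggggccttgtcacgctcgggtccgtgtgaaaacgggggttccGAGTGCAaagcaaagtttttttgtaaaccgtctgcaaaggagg
The Mt2 window held 3 matches, the Mt1 and Slc30a1 windows 1 each, and the Mt3 window 0. At least 1 match was present in 21.4% of the 32851 RefSeq promoter windows of this length, and at least 3 in 1.26%. Of the other members, Slc30a3 had 1 match in 1 of its 2 windows, Mtf1 and both Slc39a10 windows had 0, and Slc39a14 had no window in the table. In the GENCODE M21 annotation other transcripts begin farther downstream, by 122 and 152 bases for Mt1, 46 and 242 for Mt2, 139 for Mt3 and 475 for Slc30a1, so bases close to those starts are not in the windows shown. With the next 50 bases included, the counts were 3 in Mt1, 4 in Mt2, 1 in Mt3 and 2 in Slc30a1, and of all windows of that length 25.7% held at least 1 match, 7.11% at least 2, 1.97% at least 3 and 0.517% at least 4. A match is a description of the letters only.

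Mt1, Mt2 and Mt3 were among the more abundant mRNAs of these cells. Per kilobase of merged exon, Mt2 stood at 465 ± 142 CPM, Mt1 at 305 ± 71.0 and Mt3 at 241 ± 82.0 (SD over 12 libraries), each above the 99th percentile of all genes. The transporters and the regulator were far lower, at 15.0 ± 2.98 for Slc39a10, 5.62 ± 0.686 for Slc30a1, 4.40 ± 0.175 for Mtf1 and 3.10 ± 0.654 for Slc39a14. The order Mt2 above Mt1 held in 11 of 12 libraries, with Kmt2a+/+ replicate 1 as the exception, and Mt1 above Mt3 held in 10. The second of these rests on the length used: per kilobase of the longest transcript Mt3 averaged 480 against 350 for Mt1 and lay above it in all 12. So does the order of Slc30a1, Mtf1 and Slc39a14, since by that length Slc39a14 averaged 6.39, Slc30a1 5.62 and Mtf1 5.14. Slc30a3, which loads zinc into synaptic vesicles of glutamatergic neurons, was at 0 counts in 9 libraries and at 1 count in the other 3, below the floor of 3 counts (0.103 to 0.178 CPM, counting error only), and was not tested.

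Mt3, which was first known as a growth inhibitory factor of brain, was lower in Kmt2a+/LSL than in Kmt2a+/+, the pattern for which it was picked. It was at 304, 298 and 396 CPM in Kmt2a+/+ replicates 1 to 3 and at 162, 196 and 200 CPM in Kmt2a+/LSL, so the genotypes did not overlap. In bulk libraries like these, fewer expressing cells and less RNA per cell cannot be told apart. Libraries in which Kmt2a+/LSL lay wholly below Kmt2a+/+ were found for 1.77% of the 16655 genes. The log2 difference was -0.85 (SE 0.30), a level 0.555 times that of Kmt2a+/+, and nothing is read from it here because the gene was chosen on this contrast. It ran from -0.93 to -0.71 with any 1 of the 6 libraries left out and was -1.80 with an offset for GC content.

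Mt3 was also low in cells that carried nestin-Cre and no cassette. In Nes-Cre+/- Kmt2a+/+ it was at 195, 214 and 223 CPM, below every Kmt2a+/+ library and overlapping none of them (log2 difference -0.66, SE 0.27, and -1.71 with an offset for GC content). Of 17076 genes, 1.53% were wholly lower in Nes-Cre+/- Kmt2a+/+ than in Kmt2a+/+. Between Kmt2a+/LSL and Nes-Cre+/- Kmt2a+/+, a comparison added after the values were seen, Mt3 overlapped and differed by -0.18 on the log2 scale (SE 0.27, interval of 2 SE from -0.71 to 0.36). Both comparisons with Kmt2a+/+ share its 3 libraries.

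**Figure D1:**
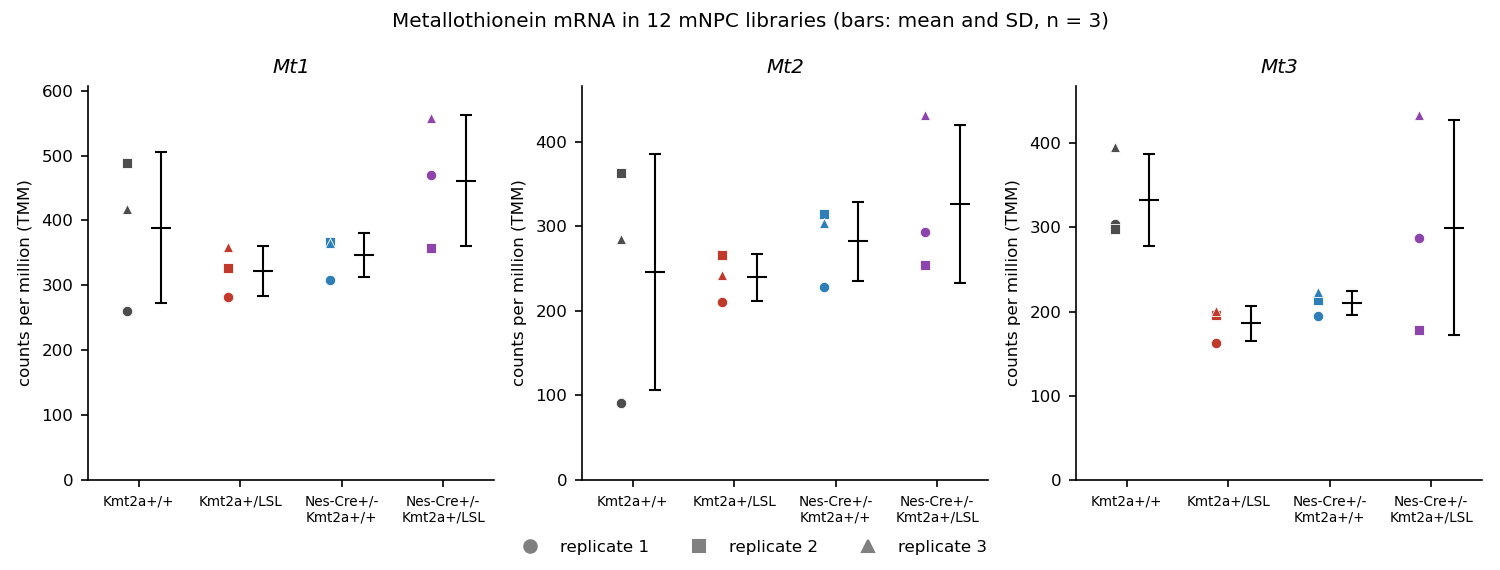
Mt1, Mt2 and Mt3 in CPM after TMM scaling (y axis) in each of the 12 libraries by genotype (x axis), with the replicate given by the symbol and the mean and SD of 3 libraries as black bars. Mt3 lies at 162 to 223 CPM in the 6 Kmt2a+/LSL and Nes-Cre+/- Kmt2a+/+ libraries and at 298 to 396 CPM in Kmt2a+/+, while Mt2 in Kmt2a+/+ replicate 1 is at 90.5 CPM.

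With both nestin-Cre and the cassette, Mt3 was at 287, 179 and 433 CPM in replicates 1 to 3 (300 ± 128, SD, n = 3). The last of these was the highest of all 12 libraries, and the other 2 lay within the range of the other genotypes. Its coefficient of variation of 42.7% within this genotype compares with 6.86% in Nes-Cre+/- Kmt2a+/+, 11.2% in Kmt2a+/LSL and 16.6% in Kmt2a+/+. The comparison within nestin-Cre carriers is the one that the choice of Mt3 did not use. There Mt3 was higher by 0.51 (SE 0.27, interval of 2 SE from -0.03 to 1.05), with an adjusted p of 1 in edgeR's quasi-likelihood test and a two-sided exact permutation p of 0.4, where 0.1 is the smallest that 3 against 3 libraries allow. Single libraries set this value: it was 0.14 without replicate 3 of Nes-Cre+/- Kmt2a+/LSL and 0.77 without replicate 2, with an adjusted p of 1 in edgeR both times. Against Kmt2a+/LSL, described only, Mt3 was higher by 0.68 (SE 0.30) with overlapping libraries, by 0.32 without replicate 3 and by 0.95 without replicate 2.

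Mt1 and Mt2 did not pass the test in any comparison. Mt1 was at 261, 489 and 417 CPM in Kmt2a+/+ replicates 1 to 3 and at 282, 327 and 359 CPM in Kmt2a+/LSL. Among nestin-Cre carriers it was at 308, 367 and 364 CPM without the cassette and at 470, 357 and 558 CPM with it. Kmt2a+/+ held both the lowest Mt1 library, replicate 1, and the second highest, replicate 2. Mt2 was at 90.5, 363 and 284 CPM in Kmt2a+/+ replicates 1 to 3 and at 211, 265 and 242 CPM in Kmt2a+/LSL. Among nestin-Cre carriers it was at 228, 315 and 304 CPM without the cassette and at 294, 254 and 431 CPM with it. For both genes the genotypes overlapped in each comparison. The share of all genes without overlap was 4.06% for Kmt2a+/LSL against Kmt2a+/+, 7.13% for Nes-Cre+/- Kmt2a+/LSL against Kmt2a+/LSL, 6.68% within nestin-Cre carriers, 4.35% for Nes-Cre+/- Kmt2a+/+ against Kmt2a+/+ and 7.95% for Kmt2a+/LSL against Nes-Cre+/- Kmt2a+/+. For both genes the highest library was Nes-Cre+/- Kmt2a+/LSL replicate 3, as for Mt3.

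In Kmt2a+/LSL against Kmt2a+/+ the log2 difference was -0.28 (SE 0.26) for Mt1 and -0.05 (SE 0.43) for Mt2, each with an edgeR adjusted p of 1. The interval of 2 SE ran from -0.81 to 0.24 for Mt1 and from -0.90 to 0.81 for Mt2. The differences of both genes rested on single Kmt2a+/+ libraries. Without Kmt2a+/+ replicate 2 the difference was -0.0895 for Mt1 and turned to 0.34 for Mt2. Without Kmt2a+/+ replicate 1 the differences were -0.49 for Mt1 and -0.43 for Mt2, and the 2 remaining Kmt2a+/+ libraries lay above all 3 Kmt2a+/LSL libraries for Mt1, Mt2 and Mt3 alike, with unadjusted p of 0.0327 and 0.0831 for Mt1 and Mt2 and an adjusted p of 0.734 for both in edgeR. With replicate 1 left out, 14.2% of all genes were wholly lower in Kmt2a+/LSL. For Mt1 and Mt3, but not Mt2, the 2 remaining Kmt2a+/+ libraries also lay above all 3 Nes-Cre+/- Kmt2a+/+ libraries, as for 13.6% of all genes.

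Mt1 was higher in Nes-Cre+/- Kmt2a+/LSL than in Kmt2a+/LSL by 0.52 (SE 0.26, interval of 2 SE from -0.01 to 1.04) and than in Nes-Cre+/- Kmt2a+/+ by 0.41 (SE 0.24). Mt2 was higher by 0.45 (SE 0.43) and 0.21 (SE 0.40) in the same comparisons. Without Nes-Cre+/- Kmt2a+/LSL replicate 3 the values were 0.36 and 0.26 for Mt1 and 0.19 and -0.0432 for Mt2, and without Nes-Cre+/- Kmt2a+/+ replicate 1 the second Mt2 value was 0.0789. In Nes-Cre+/- Kmt2a+/+ against Kmt2a+/+, Mt1 differed by -0.17 (SE 0.24) and Mt2 by 0.20 (SE 0.40), or by -0.39 and -0.20 without Kmt2a+/+ replicate 1 and by 0.0319 and 0.59 without Kmt2a+/+ replicate 2. The edgeR adjusted p was 1 for all 6 values, and exact permutation p-values lay between 0.2 and 0.8. The effect of the cassette in nestin-Cre carriers exceeded that in cells without Cre by 0.68 (SE 0.34) for Mt1 and 0.25 (SE 0.56) for Mt2, neither past the threshold (adjusted p of 1.00 for both in edgeR). Without Kmt2a+/+ replicate 1 these were 0.90 and 0.64, with unadjusted p of 0.00285 and 0.0493 and an adjusted p of 0.995 for both, and without Kmt2a+/+ replicate 2 they were 0.49 and -0.14. One alternative called Mt1: with DESeq2 z-scores and an empirical null, its rise against Kmt2a+/LSL had an adjusted p of 0.00101, in a comparison where that method called 6.98% of all genes and edgeR called 0%.

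Mt1 and Mt2 varied together from library to library. Over the 12 libraries Pearson's r of their log2 CPM was 0.82 (permutation p = 0.00016, adjusted over 6 pairs 0.00096) and Spearman's rho 0.92 (permutation p = 0.00011, adjusted 0.00066). Without the 2 libraries farthest from the median of Mt1, which were Nes-Cre+/- Kmt2a+/LSL replicate 3 and Kmt2a+/+ replicate 1, r was 0.83. With the genotype means removed, r was 0.93, with an exact permutation p within genotypes of 0.00231 (adjusted 0.0139). The ratio of Mt2 to Mt1 lay between 0.625 and 0.857 in 11 libraries and was 0.347 in Kmt2a+/+ replicate 1, the library low in GC-rich genes. Mt2 has the higher GC content of the pair, whose part in that ratio was not tested.

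**Figure D2:**
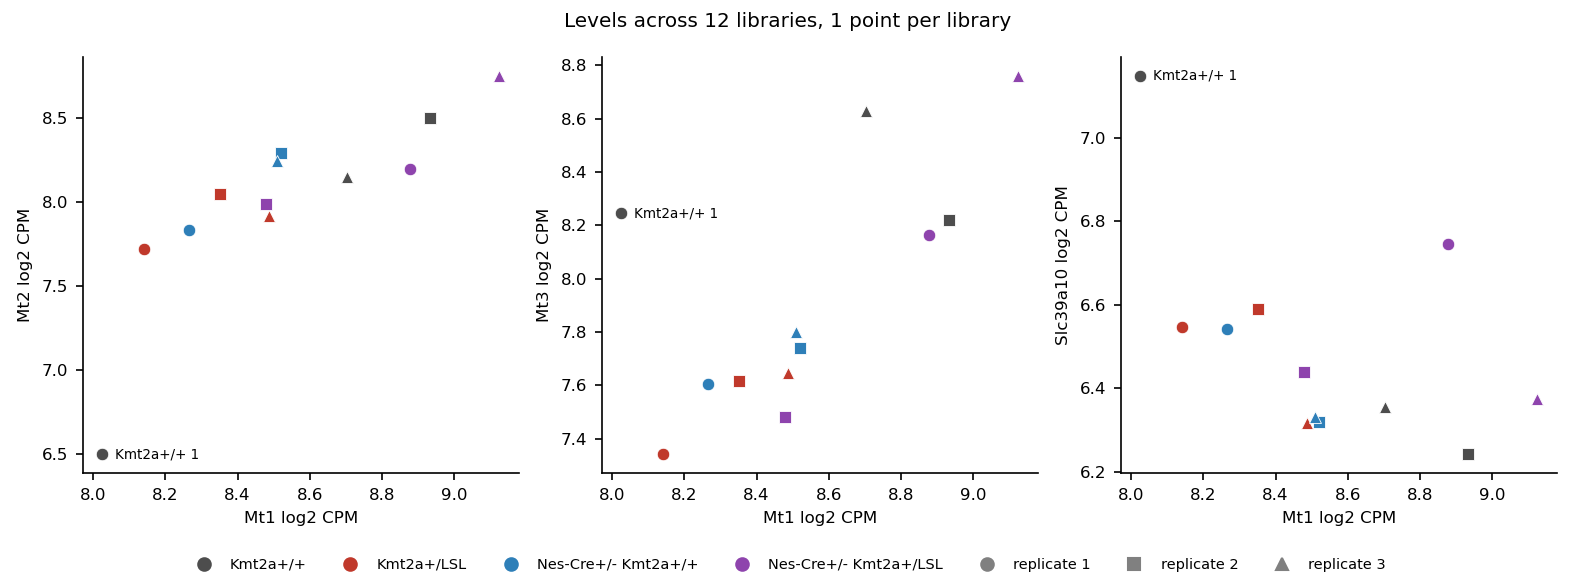
Log2 CPM of Mt2, Mt3 and Slc39a10 (y axes) against that of Mt1 (x axes), with 1 point per library, genotypes by colour and replicates by symbol. Mt1 and Mt2 rise together (r = 0.82), and Kmt2a+/+ replicate 1, labelled, has the lowest Mt1 and Mt2 and the highest Slc39a10 of the 12 libraries.

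For Mt3 and Mt1, Pearson's r was 0.65 and Spearman's rho 0.62 over the 12 libraries. The value of r was 0.81 without the 2 libraries farthest from the median of Mt1 and 0.88 without Kmt2a+/+ replicate 1 alone. Since Mt3 was chosen on genotype means, the test used deviations from these means, where r was 0.62 and did not pass (exact permutation p = 0.088, adjusted 0.176). For Mt2 and Mt3, r was 0.21 and rho 0.52, and r was 0.64 without the 2 farthest libraries and 0.78 without Kmt2a+/+ replicate 1 alone, so the low pooled value rests on that library. The deviations of Mt2 and Mt3 gave r = 0.43 (exact permutation p = 0.176, adjusted 0.264). The ratio of Mt3 to Mt1 was 0.501 to 0.633 in 9 of the 12 libraries. It was 0.777 in Nes-Cre+/- Kmt2a+/LSL replicate 3, 0.950 in Kmt2a+/+ replicate 3 and 1.17 in Kmt2a+/+ replicate 1.

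Mtf1, the regulator, was the steadiest member. It was at 37.1, 40.0 and 38.5 CPM in Kmt2a+/+ replicates 1 to 3 and at 40.7, 37.6 and 39.7 CPM in Kmt2a+/LSL. Among nestin-Cre carriers it was at 38.6, 40.9 and 38.8 CPM without the cassette and at 39.4, 37.0 and 42.0 CPM with it. The genotypes overlapped in each comparison. The log2 differences in the 4 main comparisons of 2 genotypes lay between 0.00 and 0.03 (SE 0.14 to 0.17), too near 0 to have a stable sign, with intervals of 2 SE inside -0.33 and 0.35. Over the 11 libraries other than Kmt2a+/+ replicate 1, the coefficient of variation of Mtf1 was 3.76%, lower than that of all but 0.171% of the genes with a mean count of at least 50. Over the same libraries the coefficient was 21.5% for Mt1 and 21.9% for Mt2, against a median gene of 15.2%. For Mt3 it was 35.7%, a value that takes in the difference between genotypes for which the gene was picked. RNA level says nothing of MTF-1 activity, which is set largely by zinc binding.

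Slc30a1, the exporter that MTF-1 induces along with Mt1 and Mt2, averaged 29.5 CPM over the 12 libraries. It was at 39.0, 29.5 and 24.8 CPM in Kmt2a+/+ replicates 1 to 3 and at 28.1, 30.6 and 28.3 CPM in Kmt2a+/LSL. Among nestin-Cre carriers it was at 27.4, 28.5 and 29.2 CPM without the cassette and at 31.2, 25.8 and 31.3 CPM with it. Kmt2a+/+ replicate 1 was the highest library, the one in which Mt1 and Mt2 were lowest. Its genotypes overlapped throughout, with log2 differences against Kmt2a+/+ of -0.12 for Kmt2a+/LSL and -0.13 for Nes-Cre+/- Kmt2a+/+, which were 0.10 and 0.06 without that library and -0.26 and -0.27 without Kmt2a+/+ replicate 3, and edgeR adjusted p of 1. Its coefficient of variation over the other 11 libraries was 7.25%. Its correlation with Mt1 was -0.18 (rho 0.17) and with Mt2 -0.53 (rho 0.25), with permutation p of 0.581 and 0.103 for r (adjusted 0.581 and 0.154) and 0.604 and 0.430 for rho (adjusted 0.604 and 0.516). Without the 2 libraries farthest from the median of the metallothionein, r was 0.18 and 0.29, and without Kmt2a+/+ replicate 1 alone it was 0.38 and 0.48, so the negative signs rest on that library.

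Slc39a10, the importer that MTF-1 holds down, was at 142, 75.6 and 81.8 CPM in Kmt2a+/+ replicates 1 to 3 and at 93.4, 96.2 and 79.6 CPM in Kmt2a+/LSL. Among nestin-Cre carriers it was at 93.0, 79.8 and 80.4 CPM without the cassette and at 107, 86.6 and 82.9 CPM with it. Its highest values were in the 2 GC-shifted libraries, and it has 44.5% GC. Against Kmt2a+/+ it differed by -0.17 in Kmt2a+/LSL and, with nestin-Cre alone, by -0.24 in Nes-Cre+/- Kmt2a+/+ (edgeR adjusted p of 1), by 0.19 and 0.10 without Kmt2a+/+ replicate 1 and by -0.34 and -0.40 without Kmt2a+/+ replicate 2. The correlation with Mt1 was -0.52 (permutation p = 0.0802, adjusted 0.154), with a rho of -0.53 (permutation p = 0.0796, adjusted 0.125), and r was -0.21 without the 2 libraries farthest from the median of Mt1. With the genotype means removed, r was -0.77 (exact permutation p = 0.088, adjusted 0.176). The call changed with single libraries: r was -0.70 without Nes-Cre+/- Kmt2a+/LSL replicate 1 (permutation p = 0.0147, adjusted 0.0440), -0.67 without both GC-shifted libraries (adjusted 0.0497) and -0.25 without Kmt2a+/+ replicate 1 (adjusted 0.470). Slc39a14, an importer of zinc, iron and manganese that is induced in inflammation, was at 20.6, 32.0 and 30.3 CPM in Kmt2a+/+ replicates 1 to 3 and at 33.5, 31.4 and 37.4 CPM in Kmt2a+/LSL. Among nestin-Cre carriers it was at 26.9, 39.7 and 47.1 CPM without the cassette and at 32.9, 35.2 and 25.6 CPM with it. Its lowest value was again in Kmt2a+/+ replicate 1, and all genotypes overlapped. The difference farthest from 0 for either importer between 2 genotypes was that of Slc39a14 in Nes-Cre+/- Kmt2a+/+ against Kmt2a+/+, at 0.46 (SE 0.24, edgeR adjusted p of 1), and it ran from 0.27 without Nes-Cre+/- Kmt2a+/+ replicate 3 to 0.65 without Nes-Cre+/- Kmt2a+/+ replicate 1.

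**Figure D3:**
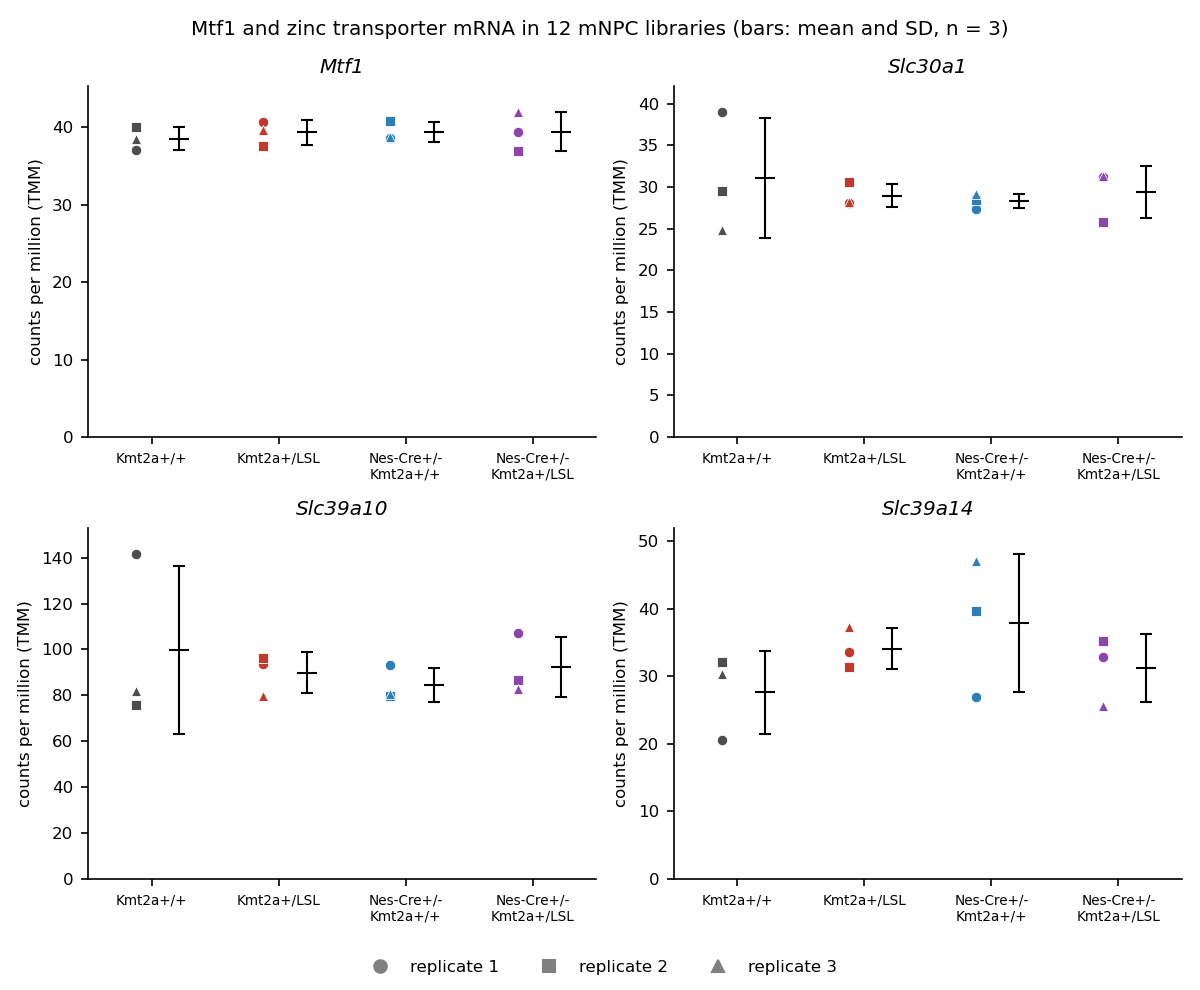
Mtf1, Slc30a1, Slc39a10 and Slc39a14 in CPM after TMM scaling (y axis) in each library by genotype (x axis), with the replicate given by the symbol and the mean and SD of 3 libraries as black bars. All genotypes overlap for each gene, Mtf1 stays between 37.0 and 42.0 CPM, and Kmt2a+/+ replicate 1 is highest for Slc30a1 and Slc39a10 and lowest for Slc39a14.

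Across the 5 comparisons, 0 members other than Mt3 had an edgeR adjusted p under 0.05, and 0 had an unadjusted p under 0.05. This count stands against a background in which edgeR called 0% of the genes in each comparison at the adjusted threshold, and at an unadjusted p under 0.05 it called 1.15% in Kmt2a+/LSL against Kmt2a+/+, 1.1% in Nes-Cre+/- Kmt2a+/LSL against Kmt2a+/LSL, 1.11% within nestin-Cre carriers, 1.4% in Nes-Cre+/- Kmt2a+/+ against Kmt2a+/+ and 1.73% for the difference between the effects of the cassette. DESeq2's Wald test called 3 to 10 genes in these comparisons and limma-voom 0, and neither called a member among those tested, which include Mt3 only within nestin-Cre carriers. The median log2 difference of the 6 members tested in Kmt2a+/LSL against Kmt2a+/+ was -0.08, beside -0.01 over all genes, and that of the 7 tested within nestin-Cre carriers was 0.13, beside 0.00. The summed astrocyte markers, cells in which metallothioneins are high, ranged from 4117 to 8152 CPM in Kmt2a+/+ and 4728 to 6639 CPM in Kmt2a+/LSL, and among nestin-Cre carriers from 4235 to 5945 CPM without the cassette and 4147 to 5475 CPM with it, with 0 of 9 markers at 0 in any library. Their part in the metallothionein levels was not tested.

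**Figure D4:**
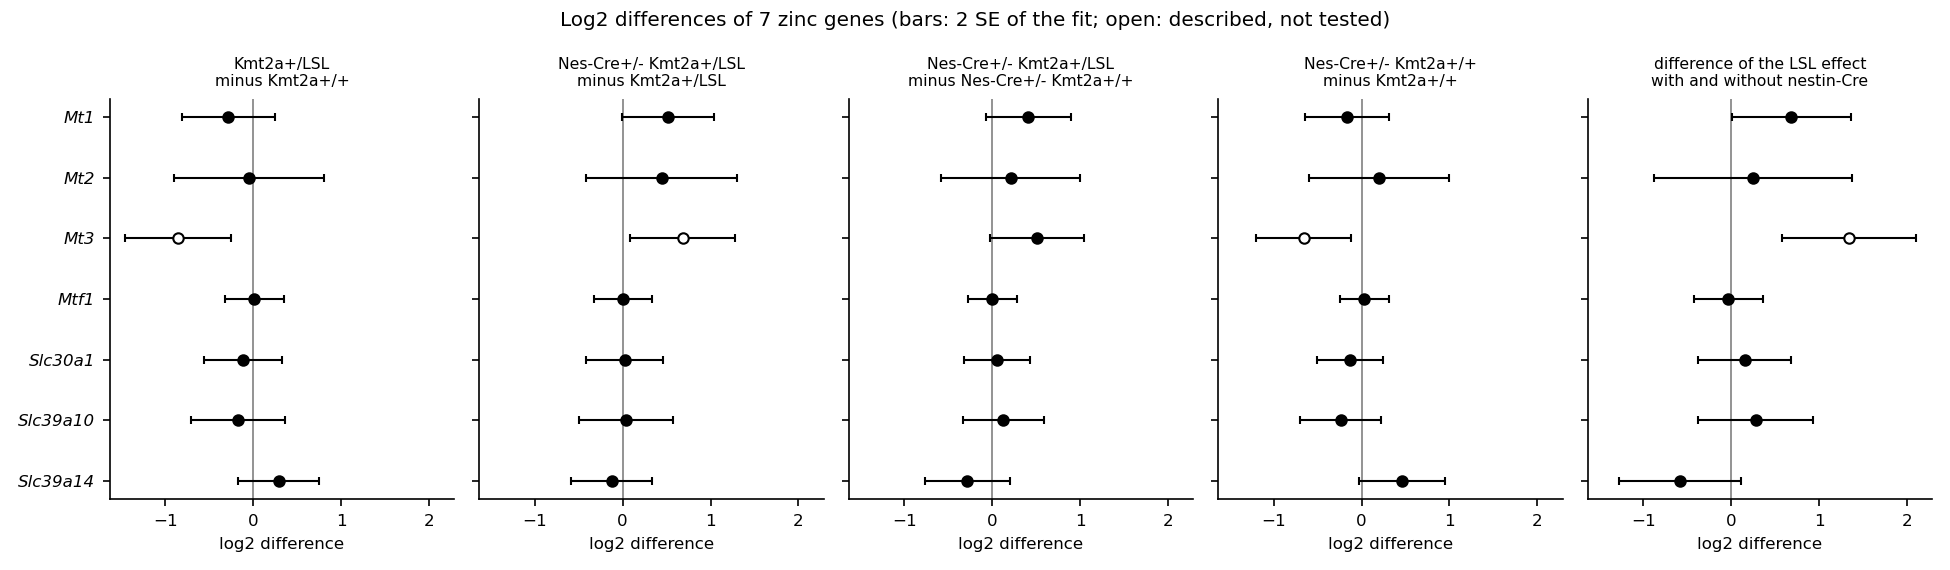
Log2 differences (x axes) of the 7 members that passed the filter on low counts (y axis) in 5 comparisons, with bars of 2 SE of the edgeR fit and open circles for Mt3 where it is described and not tested. Each filled circle is a tested value with an adjusted p of 1.00, and the bars of Mtf1 are the shortest.

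The rest of the zinc transporter family was examined in the same fits. Of 20 other SLC30 and SLC39 genes, 18 passed the filter, and 0 rose or fell in any of the 5 comparisons by the edgeR test at an adjusted or an unadjusted p under 0.05. In Kmt2a+/LSL against Kmt2a+/+, 12 lay above 0 and 6 below, where 51.6% of all genes lay below, with a median log2 difference of 0.13 beside -0.01 for all genes. This split rested on Kmt2a+/+ replicate 1, where the 20 genes summed to 648 CPM against 979 and 945 CPM in the other Kmt2a+/+ libraries. Without it 9 lay above 0 and 9 below, with a median of -0.01, and 1 gene had an unadjusted p under 0.05 in edgeR, as for 6% of all genes. Slc30a9, a zinc exchanger of mitochondria, had one of the 3 smallest p-values there: it was at 56.5, 63.8 and 83.4 CPM in Kmt2a+/+, from lowest to highest, and at 76.0, 76.4 and 88.9 in Kmt2a+/LSL (0.23, SE 0.20, adjusted p of 1 in edgeR). The others were Slc30a8, with at most 5 counts in a library of either genotype, and the importer gene Slc39a5, at 0.238, 0.309 and 0.318 CPM in Kmt2a+/+ and 0.366, 0.388 and 0.862 CPM in Kmt2a+/LSL, without overlap. Libraries without overlap in either direction made up 4.06% of all genes in this comparison.

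Among nestin-Cre carriers the smallest p-value was that of Slc30a6, a Golgi zinc transporter, which was at 12.3, 12.4 and 13.7 CPM in Nes-Cre+/- Kmt2a+/+ and at 13.7, 15.7 and 17.7 CPM in Nes-Cre+/- Kmt2a+/LSL (0.30, SE 0.22, adjusted p of 1 in edgeR), and the closest libraries of the 2 genotypes were at 13.67 and 13.68 CPM. In that comparison 2 of the 18 genes did not overlap, Slc30a6 and 1 that was lower with the cassette, beside 6.68% of all genes. By p-value Slc30a6 was followed by Slc39a2, at 1.71 and 1.22 CPM on average in the 2 genotypes, and Slc30a8. For Nes-Cre+/- Kmt2a+/LSL against Kmt2a+/LSL the 3 smallest p-values were those of Slc39a8, Slc39a5 and Slc39a2, each under 2 CPM on average. Slc39a8, an importer of zinc and manganese, was at 0.862, 1.59 and 2.23 CPM with nestin-Cre and at 0.675, 0.689 and 1.22 CPM without it (0.85, SE 0.49, adjusted p of 1 in edgeR), and was the only gene of the 18 called by the empirical null in any of the 5 comparisons (adjusted p of 0.00469, where that method called 6.98% of all genes), while DESeq2's Wald test and limma-voom called 0. For Nes-Cre+/- Kmt2a+/+ against Kmt2a+/+ they were those of Slc30a9 (0.23, SE 0.18), Slc30a8 and Slc39a6, a zinc importer (-0.16, SE 0.17). For the difference between the effects of the cassette, Slc30a9 (-0.36, SE 0.25), Slc39a5 and Slc39a2 came first.

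Other lists of genes that share inducers or metals with the metallothioneins were also without a call. They were 9 copper handling genes, 7 glucocorticoid-responsive genes and 8 targets of NRF2, the regulator of the oxidative stress response, and 0 of them had an edgeR p under 0.05 in any of the 5 comparisons, adjusted or not. The marker lists of the 6 cell types also had 0 genes with an adjusted p under 0.05 and at most 1 gene per list and comparison with an unadjusted one. In Kmt2a+/LSL against Kmt2a+/+ the median log2 difference was -0.07 for copper handling, 0.08 for glucocorticoid-responsive genes and -0.05 for NRF2 targets, beside -0.01 for all genes, and without Kmt2a+/+ replicate 1 the medians were -0.02, 0.03 and 0.34. In Nes-Cre+/- Kmt2a+/LSL against Kmt2a+/LSL, where 7.13% of all genes did not overlap, 3 of the 8 NRF2 targets did not, 2 lower and 1 higher. There 2 of the 9 astrocyte markers and 2 of 7 oligodendrocyte lineage markers were lower with nestin-Cre and did not overlap. So was 1 of the 7 glucocorticoid-responsive genes, and 1 of 7 neuron markers, 1 of 3 microglia markers and 1 of 8 fibroblast, mural and endothelial markers were higher without overlap. The genes next to Mt1, Mt2 and Mt3, examined after the values were seen, overlapped between genotypes in each main comparison of 2 genotypes. Of these neighbours 9 lie within 250000 bp in the table, and the 7 tested had log2 differences between -0.17 for Gnao1 and 0.22 for Herpud1 in Kmt2a+/LSL against Kmt2a+/+.

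The 5 genes outside the members whose log2 CPM was most like that of each metallothionein over the 12 libraries were named among 11670 genes with a mean count of at least 50, as a description. For Mt1 they were Atraid (r = 0.95), the glutathione transferase gene Gstm5 (0.88), Rps19bp1 (0.86), Fmc1 (0.84) and Gm2a (0.83), and without Kmt2a+/+ replicate 1 these values were 0.80 to 0.94. For Mt2 they were Cib2 (0.96), the selenoprotein gene Selenow (0.95), the peroxiredoxin gene Prdx2 (0.95), the mitochondrial carnitine carrier gene Slc25a20 (0.95) and Slc38a3 (0.95), and these fell to 0.81 to 0.85 without that library. For Mt3 they were Atp5j2, a subunit gene of ATP synthase (0.90), Anapc16 of the anaphase-promoting complex (0.86), Gnb1 (0.86), the mitochondrial ribosomal gene Mrpl52 (0.86) and Itpr2, a calcium release channel gene (0.83), with 0.85 to 0.90 without it.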

How the data were processed

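The table deposited by the authors holds estimated counts, rounded to integers, without normalization. The authors pseudoaligned the reads with kallisto 0.48.0 to the mm10 (GRCm38) transcriptome and summed them per gene with tximport, and symbols came from GENCODE M21 (99.0% of 18911 identifiers). Short genes with shared reads can be misassigned by this counting, and at most 1.62% of a member's 31-base words occurred in another gene. Genes were kept where the sum over the fitted libraries exceeded 10 and 2 or more libraries had counts, and were tested with edgeR 4.0.16 (R 4.3.3, TMM, quasi-likelihood F-test, Benjamini-Hochberg) in a fit of 9 libraries, without Nes-Cre+/- Kmt2a+/+, or of all 12. SEs are the log2 difference over the root of F. Log2 CPM used a prior count of 2. DESeq2 1.42.0 and limma 3.58.1 served as alternatives. Correlations used 100000 permutations. In simulated data with 200 genes changed 3-fold, edgeR recovered 21% for Kmt2a+/LSL against Kmt2a+/+ (16655 genes) and 47.5% within nestin-Cre carriers (17076 genes). Of its calls, 2 of 44 and 5 of 100 were false. The empirical null recovered 74% and 82%, with 154 of 302 and 127 of 291 calls false. DESeq2's Wald test recovered 62% and 75%, with 51 of 175 and 59 of 209 calls false. The genes named are the 8 members, Kmt2a, called genes of the other lists, the 3 zinc transporters with the smallest p per comparison and the 5 genes most like each metallothionein. Olig1, Map2, Slc17a7, Fabp7, Sox2, Hes5, Gnao1 and Herpud1 were added to this rule after their values were seen. Members and lists were chosen with earlier results of these data known. The study's own test was approximated by DESeq2 z-scores with an empirical null fitted to the central 75%.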

Additional observations from a re-analysis of the deposited data

How the results depend on the processing

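Of the 36 log2 differences of members, 16 kept their sign under every alternative and 20 took the other sign at least once, and the latter were at most 0.28 in size. The Mt3 and Slc39a14 differences and all Mt1 differences other than that of Nes-Cre+/- Kmt2a+/+ against Kmt2a+/+ kept theirs. In the count of members called, Mt3 was included only within nestin-Cre carriers, where it was tested. So counted, the number was 0 under all settings but 1: the empirical null gave 1 (Mt1) in Nes-Cre+/- Kmt2a+/LSL against Kmt2a+/LSL, with a log2 difference of 0.53. The cause was not tested here or for the values that follow. In Kmt2a+/LSL against Kmt2a+/+, Mt2 was at 0.15 with limma-voom and 0.0843 with a replicate block. There Mtf1 was at -0.0104 with DESeq2 size factors, -0.0105 with the Wald test and the empirical null, -0.0074 with no filter, -0.0177 with a GC offset and -0.0188 with a replicate block and GC offset. In Nes-Cre+/- Kmt2a+/+ against Kmt2a+/+, Mtf1 was at -0.0044, -0.0047, -0.0057 and -0.0052 with size factors, both DESeq2 tests, the GC offset and the block with GC offset, and for the difference between the cassette effects it was at 0.0215, 0.0208, 0.0258 and 0.0253. Within nestin-Cre carriers Mtf1 was at -0.0016 with limma-voom and -8.51e-06 with no filter. The GC offset moved Mt3 to -1.80, -1.71 and 2.53 in the first comparison, in Nes-Cre+/- Kmt2a+/+ against Kmt2a+/+ and for the difference between effects, and with the replicate block to -1.36, -1.42 and 2.09. The GC offset and the removal of libraries that stood apart were chosen after seeing the data.

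Without Kmt2a+/+ replicate 1 and Nes-Cre+/- Kmt2a+/LSL replicate 1, Slc30a1 and Slc39a10 were at 0.10 and 0.19 in Kmt2a+/LSL against Kmt2a+/+, at -0.0409 and -0.10 in Nes-Cre+/- Kmt2a+/LSL against Kmt2a+/LSL, at -0.0041 and -0.0096 within nestin-Cre carriers, at 0.0578 and 0.10 in Nes-Cre+/- Kmt2a+/+ against Kmt2a+/+ and at -0.10 and -0.20 for the difference between effects. Mtf1 was at -0.0149 in the second and -0.0134 in the third of these, and Mt2 at -0.20 in the fourth. The correlations were then 0.88 for Mt1 and Mt3, 0.79 for Mt2 and Mt3, 0.29 for Mt1 and Slc30a1, 0.50 for Mt2 and Slc30a1 and -0.67 for Mt1 and Slc39a10. With 1 library left out in turn, r ran from 0.78 to 0.89 for Mt1 and Mt2, 0.48 to 0.88 for Mt1 and Mt3, -0.0351 to 0.78 for Mt2 and Mt3, -0.35 to 0.38 for Mt1 and Slc30a1, -0.68 to 0.48 for Mt2 and Slc30a1 and -0.70 to -0.25 for Mt1 and Slc39a10.

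With 1 library left out in turn, the differences that changed sign ran as follows. In Kmt2a+/LSL against Kmt2a+/+ they were -0.43 to 0.34 for Mt2, -0.00978 to 0.0429 for Mtf1, -0.26 to 0.10 for Slc30a1 and -0.34 to 0.19 for Slc39a10. In Nes-Cre+/- Kmt2a+/LSL against Kmt2a+/LSL they were -0.0428 to 0.0468 for Mtf1, -0.0234 to 0.11 for Slc30a1 and -0.0818 to 0.11 for Slc39a10, and within nestin-Cre carriers -0.0432 to 0.36 for Mt2 and -0.0462 to 0.0460 for Mtf1. In Nes-Cre+/- Kmt2a+/+ against Kmt2a+/+ they were -0.39 to 0.0319 for Mt1, -0.20 to 0.59 for Mt2, -0.27 to 0.0576 for Slc30a1 and -0.40 to 0.10 for Slc39a10. For the difference between effects they were -0.14 to 0.64 for Mt2, -0.0761 to 0.0160 for Mtf1, -0.0467 to 0.30 for Slc30a1 and -0.0673 to 0.44 for Slc39a10. The replicate block changed no call and gave 0 called members among those tested in each comparison. The check of pairing was mixed. Deviations of same-numbered libraries correlated at a mean r of 0.137 over 18 pairs (-0.136 to 0.588, with 8 over 0.1), against -0.0653 over 36 pairs of different number, and 8 of 12 libraries correlated best with their own number, a hint from the data and not from the design. With 3 libraries a genotype and a biological coefficient of variation of 0.4123 or 0.3676, a missed threshold does not show that levels were equal.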
